A study of Mus musculus with 2 samples.

Results

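The 49 genes described here encode the enzymes and transporters of central carbon metabolism, from glucose uptake through glycolysis, lactate formation and export, the pentose phosphate pathway and the pyruvate dehydrogenase complex to the tricarboxylic acid (TCA) cycle. They were selected by gene symbol from a written list, and all 49 were found among the 23988 genes of the deposited table. That list and those used for comparison were chosen with earlier results of these data known. The cells were untransformed mouse myeloid progenitors: bone marrow of C57BL/6 mice depleted of lineage-positive cells (Lin-) and kept for 7 days with IL3, SCF and IL6, the cytokines interleukin 3, stem cell factor and interleukin 6. The labels give no other treatment, no engineered allele and 1 group of 2 RNA-seq libraries, replicate 1 and replicate 2, and do not say whether these came from separate animals or cultures. The series title names HOXA9/MEIS1 leukaemia cells, which were not analysed here. Values are RPKM, read numbers scaled to the length of the gene and the size of the library, so levels can be compared between genes as far as the lengths used by the authors are right. The smallest p that sign flips of 2 libraries allow in an exact permutation test is 0.5, so no test was run, and each difference between the libraries describes these 2 libraries only.

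Glycolysis splits glucose into pyruvate in the cytosol, and lactate dehydrogenase turns pyruvate into lactate to regenerate NAD+. The pentose phosphate pathway branches off at glucose 6-phosphate and yields NADPH and ribose 5-phosphate, which neutrophils use for the oxidative burst and dividing cells for nucleotides. Pyruvate dehydrogenase feeds acetyl-CoA into the TCA cycle in mitochondria, and its kinases switch it off. Many genes of glucose uptake, glycolysis and lactate export are textbook targets of the hypoxia-inducible factors (HIF), which bind DNA at a core of 5 bases, ACGTG or GCGTG, of which the first was searched here. Neutrophils are known for relying on glycolysis.

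The steps between low values gave a ratio of effective library sizes, replicate 2 over replicate 1, of 0.962, at which 410 low genes had the same number of reads on both sides. Annotated lengths put the sizes at about 28793666 reads in replicate 2 and 29941063 in replicate 1, so that 3 reads in a gene of 1 kb, the limit that a count of 0 allows, came to 0.10 RPKM in each. These sizes may contain a normalisation factor. Of the markers checked against the label, 11 of 11 neutrophil genes, 12 of 12 monocyte and macrophage genes and 5 of 8 mast cell genes reached 1 RPKM in both libraries. None of the 4 B cell, 4 T cell and 4 erythroid genes did. Over all genes the share was 43.5%. The 5 mast cell genes were Mcpt2, Cma1, Mitf, Cpa3 and Kit. Among them Mcpt2 and Cma1 had 402 and 211 RPKM in replicate 2, but 4.97 and 3.55 in replicate 1. Kit, listed as a mast cell gene and also a receptor gene of progenitors, had 26.2 RPKM in replicate 2, against 21.2 in replicate 1. Even the lowest of the 11 neutrophil markers was above Kit, with 295 RPKM in replicate 2 and 167 in replicate 1. In such bulk samples, fewer cells of a type and less RNA per cell cannot be told apart.

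Because several members with a higher level in replicate 2 are known HIF targets, the 250 bases before the annotated start of 4 of them are shown, followed by Cs, whose level was lower there. These 5 were chosen after their values were seen and do not represent the members, which are counted below. The members were not sorted into HIF targets and other genes, so the 4 do not show how HIF targets differed as a set. Each sequence comes from the RefSeq promoter table (GRCm38.p6, a later assembly than the authors' mm9) and runs 5′ to 3′ on the strand of the gene, here the plus strand in every case. Capitals mark ACGTG and its reverse complement CACGT. Pgk1 lies at chrX:106186850-106187099, Ldha at chr7:46845554-46845803, Slc16a3 at chr11:120948817-120949066, Slc2a1 at chr4:119108495-119108744 and Cs at chr10:128337477-128337726.
Pgk1: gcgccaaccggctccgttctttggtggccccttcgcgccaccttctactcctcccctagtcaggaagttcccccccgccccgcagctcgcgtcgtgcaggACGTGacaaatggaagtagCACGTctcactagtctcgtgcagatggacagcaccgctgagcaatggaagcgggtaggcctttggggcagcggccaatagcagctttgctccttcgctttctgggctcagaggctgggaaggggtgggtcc
Ldha: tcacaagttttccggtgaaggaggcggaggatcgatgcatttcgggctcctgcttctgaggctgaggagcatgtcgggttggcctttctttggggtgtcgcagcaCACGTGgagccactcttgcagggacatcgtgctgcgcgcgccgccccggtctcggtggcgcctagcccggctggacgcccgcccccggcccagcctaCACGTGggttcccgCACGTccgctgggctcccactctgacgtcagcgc
Slc16a3: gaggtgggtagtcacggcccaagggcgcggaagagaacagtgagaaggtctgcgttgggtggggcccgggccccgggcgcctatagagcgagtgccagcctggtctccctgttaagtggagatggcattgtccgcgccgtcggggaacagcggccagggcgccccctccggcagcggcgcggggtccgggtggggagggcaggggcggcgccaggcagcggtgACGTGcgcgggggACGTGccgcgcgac
Slc2a1: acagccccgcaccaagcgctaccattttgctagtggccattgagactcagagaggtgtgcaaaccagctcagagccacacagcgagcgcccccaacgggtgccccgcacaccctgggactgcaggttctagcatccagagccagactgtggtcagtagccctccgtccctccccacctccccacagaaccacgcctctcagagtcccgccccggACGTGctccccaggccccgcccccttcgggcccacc
Cs: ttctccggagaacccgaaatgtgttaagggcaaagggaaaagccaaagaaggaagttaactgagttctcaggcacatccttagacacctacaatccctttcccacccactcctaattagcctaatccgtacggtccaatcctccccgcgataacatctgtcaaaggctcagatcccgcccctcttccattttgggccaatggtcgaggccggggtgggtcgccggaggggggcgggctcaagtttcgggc

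The 250 bases of Pgk1 held 2 matches, Slc16a3 held 2, Slc2a1 held 1 and Cs held 0. Of the 2 annotated starts of Ldha, only 1 had matches, and that is the one shown. It held 5, counting each palindrome CACGTG, of which it has 2, once on either strand. The same hexamer is also the E-box that MYC, MAX and USF proteins bind, so the letters do not name a factor. Counted by gene, ACGTG on either strand stood before at least 1 annotated start of 18 of the 47 members with an entry, against 18.5% of the 27025 genes of the promoter table and 25.7% of the 8232 genes with an entry and a mean from 1 RPKM. It was present for 5 of 10 members whose level in replicate 2 exceeded that in replicate 1 by 2-fold or more. Of these 10, Aldoc, Pdk1, Pfkl, Pfkp and Tpi1 had no match before any annotated start. The letters were also present for 13 of the 37 other members with an entry. Pfkfb3, one of these and nearly level between the libraries, had a match before each of its 2 annotated starts, and Pfkfb4 had none. By pathway, 7 of 16 glycolytic enzyme genes, 0 of 7 pentose phosphate genes and 3 of 11 TCA cycle genes had it. Genes with several annotated starts had more chances to hold a match, and counting each start by itself changed these comparisons. By start, the letters stood before 38.5% of the starts of the members higher by 2-fold or more and 38.9% of those of the other members. Over genes with a mean from 1 RPKM they stood before 22.1% of starts, and over the whole promoter table before 16.6%. They stood before 34.6% of the starts of glycolytic enzyme genes and 8 of 16 starts of TCA cycle genes, an order opposite to that by gene. Of these TCA cycle starts with a match, 6 belong to Ogdh alone, and Idh3g and Mdh1 have 1 each. The presence of these letters does not show binding.

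Expression of the members was broad and high. Of the 49 genes, 47 reached 1 RPKM in both libraries, against 43.5% of all genes, and 15 reached 100 RPKM in both, against 3.6% of all genes. Eno2, the neuronal enolase, and Pdk2 were the 2 members below 1 RPKM in at least one library. Together the 49 genes held 2.1% of the summed RPKM in replicate 2 and 1.36% in replicate 1. The median member had 46.9 RPKM in replicate 2 and 45.1 in replicate 1, whereas the median of the 10896 genes whose mean reached 1 RPKM was 13.2 RPKM in replicate 2 and 13.4 in replicate 1.

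**Figure D1:**
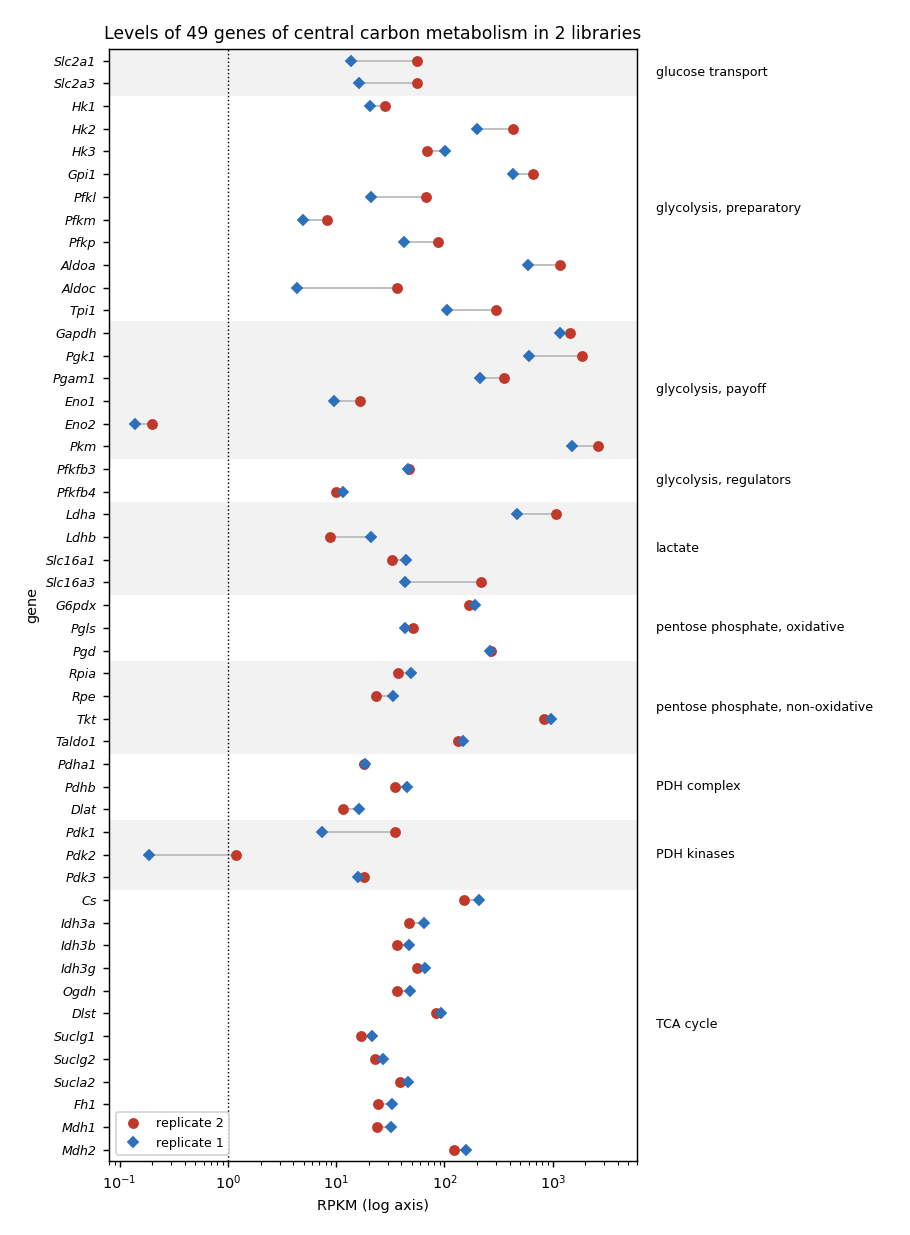
RPKM (log axis) of each of the 49 genes in replicate 2 (circles) and replicate 1 (diamonds), ordered by role, with a dotted line at 1 RPKM. Pkm is the highest gene in both libraries, Eno2 the lowest in both, and the circles of all 12 TCA cycle genes lie left of the diamonds.

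Among the enzymes of the payoff phase, which makes ATP and NADH from triose phosphates, Pkm (pyruvate kinase M, the last step) was the highest of all members with 2617 RPKM in replicate 2, against 1504 in replicate 1. Pgk1 (phosphoglycerate kinase) had 1854 RPKM in replicate 2 and 599 in replicate 1, and Gapdh (glyceraldehyde phosphate dehydrogenase) had 1453 RPKM in replicate 2 and 1164 in replicate 1. Pgam1 (phosphoglycerate mutase) had 357 RPKM in replicate 2, against 212 in replicate 1. The step between Pgam1 and Pkm looked far lower, since Eno1, the main enolase gene, had only 16.5 RPKM in replicate 2 and 9.44 in replicate 1. A near-identical copy, Eno1b, was listed with 22.3 RPKM in replicate 2 and 0.578 in replicate 1, so reads of this enzyme may have been divided between copies or lost in counting, and neither value is a secure level. Eno2 had 0.198 RPKM in replicate 2, at least 15 reads, and 0.140 RPKM in replicate 1, at least 11 reads, a ratio of 1.42 with a 95% interval from 0.609 to 3.41 that covers counting error only.

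In the preparatory phase, which spends ATP to split the hexose, Aldoa (aldolase A) was highest with 1166 RPKM in replicate 2, against 589 in replicate 1. Gpi1 (glucose phosphate isomerase) followed with 652 RPKM in replicate 2 and 432 in replicate 1. Hk2, described with the hexokinases, came next, and Tpi1 (triose phosphate isomerase) had 298 RPKM in replicate 2 and 105 in replicate 1. The rate-controlling phosphofructokinase genes were much lower. Pfkp (platelet form) had 87.8 RPKM, Pfkl (liver form) 67.4 and Pfkm (muscle form) 8.21 in replicate 2, against 42.2 RPKM for Pfkp, 21.1 for Pfkl and 4.96 for Pfkm in replicate 1. Their order was the same in both libraries. Of the kinase-phosphatases that set their activator fructose 2,6-bisphosphate, Pfkfb3 had 46.9 RPKM in replicate 2 and 46.3 in replicate 1, and Pfkfb4 had 9.999 RPKM in replicate 2 and 11.4 in replicate 1. These 2 regulator genes were nearly level between the libraries, whereas Pfkp and Pfkl were not.

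Hexokinase genes differed in their proportions between the libraries. Hk2, the inducible form found on mitochondria, made up 81.4% of the summed RPKM of Hk1, Hk2 and Hk3 in replicate 2 and 62.2% in replicate 1 (mean 71.8 ± 13.5%, SD, n = 2). Hk2 had 425 RPKM in replicate 2 and 201 in replicate 1. Hk3, the form enriched in myeloid cells, differed in the other direction, with 69.1 RPKM in replicate 2 and 102 in replicate 1. Hk1 was the lowest with 28.2 RPKM in replicate 2 and 20.4 in replicate 1. The glucose transporter genes Slc2a1 (GLUT1) and Slc2a3 (GLUT3) were alike in level. Slc2a1 had 55.9 RPKM in replicate 2 and 13.6 in replicate 1, and Slc2a3 had 55.2 RPKM in replicate 2 and 16.4 in replicate 1, so which of them was higher depended on the library.

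At the lactate step the paralogs also differed in opposite directions. Ldha, whose subunit favours lactate formation, had 1071 RPKM in replicate 2, against 470 in replicate 1. Ldhb, whose subunit favours the reverse direction, had 8.81 RPKM in replicate 2 and 20.7 in replicate 1, so Ldha exceeded Ldhb by 122-fold in replicate 2 and 22.7-fold in replicate 1. Slc16a3 (MCT4, the lactate exporter) had 217 RPKM in replicate 2 and 43.6 in replicate 1. Slc16a1 (MCT1, which carries lactate both ways) had 32.9 RPKM in replicate 2 and 44.0 in replicate 1. Slc16a3 thus made up 86.8% of the pair's sum in replicate 2, against 49.7% in replicate 1, where the pair was near parity.

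**Figure D2:**
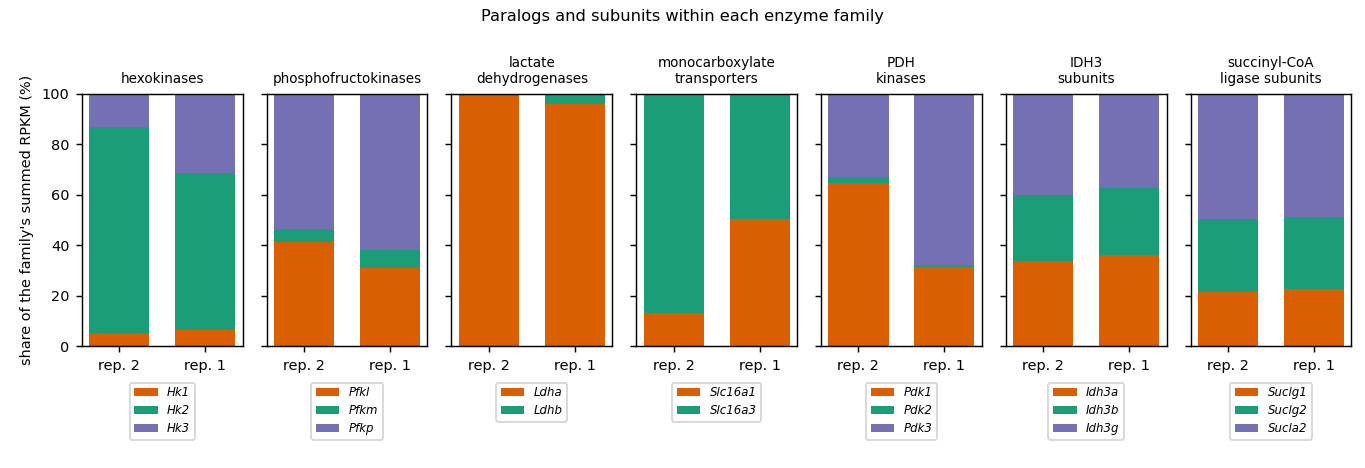
Share of each paralog or subunit gene in the summed RPKM of its family (percent, bars from 0 to 100) in replicate 2 (left bar) and replicate 1 (right bar). Slc16a3 holds 86.8% in replicate 2 and 49.7% in replicate 1, Pdk1 holds 64.7% in replicate 2 and 31.3% in replicate 1, while the shares of the IDH3 and succinyl-CoA ligase genes differ by under 4 percentage points.

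Levels of the pentose phosphate genes spanned a wide range. Tkt (transketolase) led with 822 RPKM in replicate 2, against 959 in replicate 1, the highest member outside glycolysis and lactate formation in both libraries. Pgd, which yields the second NADPH, had 267 RPKM in replicate 2 and 264 in replicate 1, and G6pdx, which commits glucose 6-phosphate to the pathway, had 167 RPKM in replicate 2 and 192 in replicate 1. Taldo1 (transaldolase) had 134 RPKM in replicate 2 and 148 in replicate 1. The remaining 3 genes, Pgls (lactonase), Rpia (isomerase) and Rpe (epimerase), ranged from 23.3 to 51.7 RPKM in replicate 2 and from 33.4 to 48.8 in replicate 1. On the log2(RPKM + 1) scale the median pentose phosphate gene exceeded the median TCA cycle gene by 1.80 in replicate 2 and 1.61 in replicate 1. The mean was 1.71 ± 0.14 (SD, n = 2), which was beyond 2 SD. This SD is over the 2 libraries and leaves out the spread among genes. Pgls, Rpia and Rpe lay within the range of the TCA cycle genes, 16.9 to 153 RPKM in replicate 2 and 21.2 to 208 in replicate 1.

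Genes of the TCA cycle were moderate. Cs (citrate synthase) had 153 RPKM in replicate 2, against 208 in replicate 1, and Mdh2 (mitochondrial malate dehydrogenase) had 122 RPKM in replicate 2 and 157 in replicate 1. These 2 of the 12 reached 100 RPKM in both libraries, against 3.6% of all genes. Dlst, a core subunit of the 2-oxoglutarate dehydrogenase complex, had 84.1 RPKM in replicate 2 and 93.8 in replicate 1, and Ogdh, which carries the first step of that complex, had 36.2 RPKM in replicate 2 and 48.2 in replicate 1. The subunit genes of isocitrate dehydrogenase 3 and of succinyl-CoA ligase kept nearly fixed proportions. For isocitrate dehydrogenase 3, Idh3g had 55.9 RPKM, Idh3a 46.8 and Idh3b 36.4 in replicate 2, against 66.2 RPKM for Idh3g, 64.3 for Idh3a and 47.5 for Idh3b in replicate 1. For succinyl-CoA ligase, Sucla2 (the ATP-forming partner) exceeded Suclg2 (the GTP-forming partner) by 1.72-fold in replicate 2 and 1.71-fold in replicate 1, and the shared subunit gene Suclg1 was lowest with 16.9 RPKM in replicate 2 and 21.2 in replicate 1. Fh1 (fumarase) had 24.1 RPKM in replicate 2 and 33.1 in replicate 1, and Mdh1, the cytosolic malate dehydrogenase, had 24.0 RPKM in replicate 2 and 32.0 in replicate 1.

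The pyruvate dehydrogenase genes Pdhb, Pdha1 and Dlat had levels of 34.8, 17.9 and 11.6 RPKM in replicate 2, against 45.1, 18.6 and 16.3 RPKM in replicate 1. The kinase genes that inactivate the complex differed in rank. Pdk1, a known HIF target, had 35.1 RPKM in replicate 2 and 7.31 in replicate 1, whereas Pdk3 had 18.03 RPKM in replicate 2 and 15.87 in replicate 1. Pdk1 thus made up 64.7% of the kinase RPKM in replicate 2 and 31.3% in replicate 1. Pdk2 had 1.19 RPKM in replicate 2, at least 73 reads, and 0.187 RPKM in replicate 1, at least 12 reads, a ratio of 6.33 with a 95% counting interval from 3.41 to 12.8.

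Glycolytic enzymes, taken as the 16 genes from hexokinases to Pkm, had medians of 193 RPKM in replicate 2 and 103 in replicate 1, whereas the 12 TCA cycle genes had medians of 37.8 RPKM in replicate 2 and 47.9 in replicate 1. On the log2(RPKM + 1) scale the difference was 2.07 in replicate 2 and 1.09 in replicate 1, or 1.58 ± 0.69 (SD, n = 2), which was beyond 2 SD. It was no longer beyond 2 SD with means in place of medians, at 1.03 ± 0.88, or with members under 5 RPKM left out, at 2.03 ± 1.30. Against the pentose phosphate genes the sign differed between libraries, at 0.27 in replicate 2 and -0.52 in replicate 1, a difference of -0.12 ± 0.55 (SD, n = 2), within 2 SD.

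The 2 libraries differed by pathway. Ratios of replicate 2 over replicate 1 were taken as log2 of RPKM + 1 for genes whose mean reached 1 RPKM, which 47 members passed and Eno2 and Pdk2 missed, and a difference of at least 2-fold was called. Called higher in replicate 2 were 11 of the 47, against 5.3% of the 10896 genes, and 10 of these belong to glucose uptake, glycolysis and lactate handling. They were Slc2a1, Slc2a3, Hk2, Pfkl, Pfkp, Aldoc, Tpi1, Pgk1, Ldha and Slc16a3, with Pdk1 as the eleventh. Ldhb alone was called lower, against 0.734% of the 10896 genes.

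The largest log2 ratio among the members was 2.79 for Aldoc, the aldolase of brain, which had 36.1 RPKM in replicate 2 and 4.38 in replicate 1, an 8.25-fold difference. Slc16a3 followed at 2.29, Pdk1 at 2.12 and Slc2a1 at 1.96, which still lay above 98.97% of the 10896 genes. Slc2a3 stood at 1.69, Pfkl and Pgk1 at 1.63 and Tpi1 at 1.501. The lowest of the called genes were Ldha at 1.19, Hk2 at 1.07 and Pfkp at 1.04. Aldoa lay just under the line at a log2 ratio of 0.98, so Aldoa and Pfkp sit on either side of the 2-fold limit with nearly equal ratios. Of the payoff enzymes Pgk1 alone was called, and Gapdh, the step before it, had a ratio of 0.32.

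Of the 15 glycolytic enzyme genes that passed the minimum, 14 were higher in replicate 2 by any amount, with Hk3 the exception, and their median log2 ratio was 0.80. Over the 10896 genes, 44.1% were higher in replicate 2 and the median log2 ratio was -0.05. The summed RPKM of the 16 glycolytic enzyme genes was 9135 in replicate 2 and 5009 in replicate 1, a ratio of 1.82. Members with smaller positive ratios were Pkm at 0.80, Pgam1 and Eno1 at 0.75, Pfkm at 0.63, Gpi1 at 0.59 and Hk1 at 0.45. The ratio of Eno1, counted among the 14, is no more secure than its level.

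All 12 TCA cycle genes were lower in replicate 2, with log2 ratios from -0.45 for Idh3a to -0.16 for Dlst and a median of -0.37, while 55.9% of all 10896 genes were lower. None of the 12 passed 2-fold. The 3 pyruvate dehydrogenase genes were also lower, with a median of -0.37, as were 5 of the 7 pentose phosphate genes, with a median of -0.20. Pgls at 0.25 and Pgd at 0.02 were the pentose phosphate genes above 0, and Pgd was below 0 when the libraries were rescaled without the 10 highest genes. The median log2 ratio of the glycolytic enzymes exceeded that of the TCA cycle genes by 1.17 and that of the pentose phosphate genes by 1.001. The single ratios of TCA cycle genes were within the central range of all genes, whose 5th and 95th percentiles were -0.56 and 1.03.

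**Figure D3:**
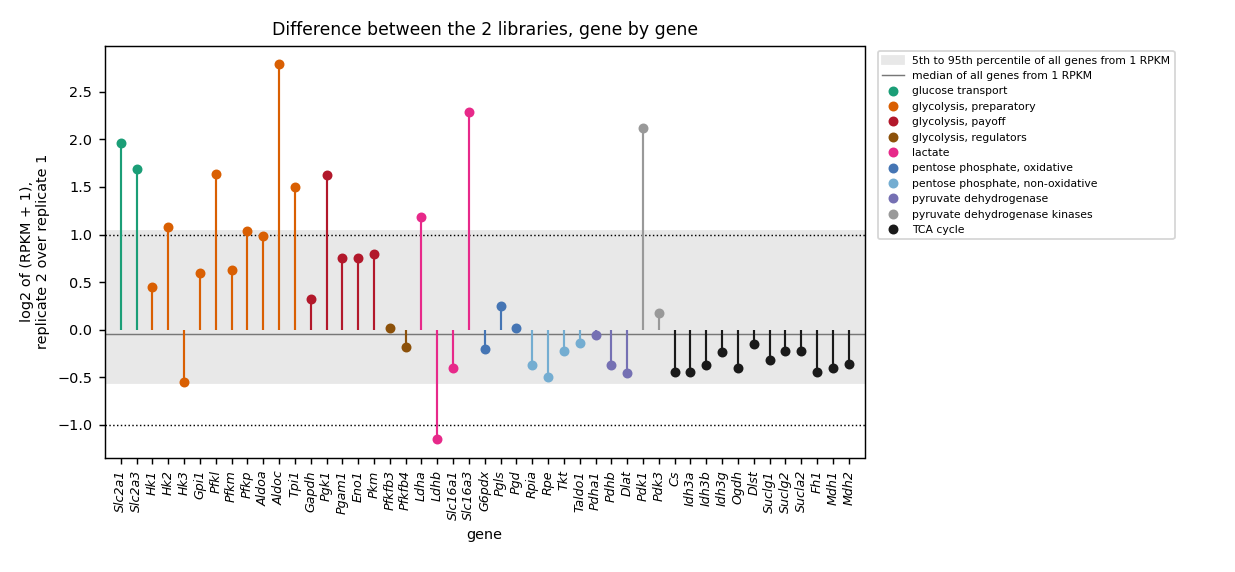
Log2 ratio of RPKM + 1, replicate 2 over replicate 1, for the 47 members whose mean reached 1 RPKM, coloured by role, with dotted lines at 2-fold and a grey band from the 5th to the 95th percentile of all 10896 genes. Points for glucose transport and most glycolytic enzymes lie above 0, with Aldoc highest at 2.79, and all 12 TCA cycle genes lie between -0.45 and -0.16.

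Further genes of the same pathways, 65 in number, were read in the same way. Of these, 42 reached 1 RPKM in both libraries, against 43.5% of all genes. Among the 44 whose mean reached 1 RPKM, 2 were called higher in replicate 2, a share close to the 5.3% of all genes. These were Bsg, which encodes basigin, the chaperone of the lactate carriers, with 203 RPKM in replicate 2, against 93.7 in replicate 1, and Slc2a6, a hexose transporter gene, with 26.98 RPKM in replicate 2, against 12.66 in replicate 1. Called lower were 2 of the 44, against 0.734% of all 10896 genes. G6pc (glucose 6-phosphatase) had 1.05 RPKM in replicate 2 and 4.38 in replicate 1. Prps1, which turns ribose 5-phosphate into the precursor of nucleotides, had 20.5 RPKM in replicate 2 and 44.5 in replicate 1. Of 24 further pyruvate and TCA genes, 16 were lower in replicate 2 and 8 higher, with a median log2 ratio of -0.22. Over all 10896 genes, 55.9% were lower. Sdha (succinate dehydrogenase) had 204 RPKM in replicate 2 and 242 in replicate 1. Dld, the dehydrogenase shared by the pyruvate and 2-oxoglutarate complexes, had 98.97 RPKM in replicate 2 and 147.2 in replicate 1, the largest difference in that list at a log2 ratio of -0.57.

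Mitochondrial genes outside the TCA cycle and hypoxia-induced genes outside glycolysis are given for comparison. Because these lists were chosen with earlier results of these data known, their shared directions are a description only. All 20 nuclear-encoded respiratory chain genes were lower in replicate 2, against 55.9% of the 10896 genes, with a median log2 ratio of -0.31 and 0 called. Among them Atp5b, a subunit of ATP synthase, had 1123 RPKM in replicate 2, against 1557 in replicate 1. All 17 hypoxia-induced genes outside glycolysis that passed the minimum were higher in replicate 2, against 44.1% of the 10896 genes. Their median log2 ratio was 1.76, and 12 were called, against 5.3% of the 10896 genes. Bnip3, a gene of mitochondrial clearance, had 91.3 RPKM in replicate 2 and 6.87 in replicate 1. Egln3, a HIF prolyl hydroxylase gene, had 139.5 RPKM in replicate 2 and 27.5 in replicate 1, and Ero1l, an oxidase of protein folding, had 289 RPKM in replicate 2 and 127 in replicate 1. The ACGTG letters stood before 11 of the 15 genes of the hypoxia-induced list with a promoter entry. Of genes with an entry and a mean from 1 RPKM, 25.7% had them. The differences between these lists and the members were not tested, since each side is 1 library.

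Markers of cell types differed between the same libraries. All 12 monocyte and macrophage genes were higher in replicate 2, against 44.1% of the 10896 genes, with a median log2 ratio of 1.10. Their summed level was 3700 RPKM in replicate 2 and 1362 in replicate 1. Called higher were 6 of the 12, against 5.3% of the 10896 genes. Lyz2 (lysozyme), among the 6, had 1853 RPKM in replicate 2, against 442 in replicate 1. Of the 8 mast cell genes, 7 passed the minimum and all 7 were higher in replicate 2, with a median log2 ratio of 5.54 and 5 called. Mcpt2, a mast cell protease gene, had the largest log2 ratio of all 10896 genes, at 6.08. The summed level over the 8 was 1351 RPKM in replicate 2 and 256 in replicate 1. The 11 neutrophil genes had sums of 48051 RPKM in replicate 2 and 58563 in replicate 1. Of the 11, 7 were lower in replicate 2, against 55.9% of the 10896 genes, and Camp (cathelicidin) was called higher at a log2 ratio of 1.06. Without S100a8 and S100a9 the order of the sums turned, with 16109 RPKM in replicate 2 and 14446 in replicate 1 over the other 9. The summed levels of the B cell, T cell and erythroid markers did not exceed 4.04 RPKM in either library, and Ms4a1, Pax5, Cd3e and Cd4 were listed at 0 in both. The part of monocyte, macrophage and mast cell RNA in the differences of the metabolic genes was not tested.

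**Figure D4:**
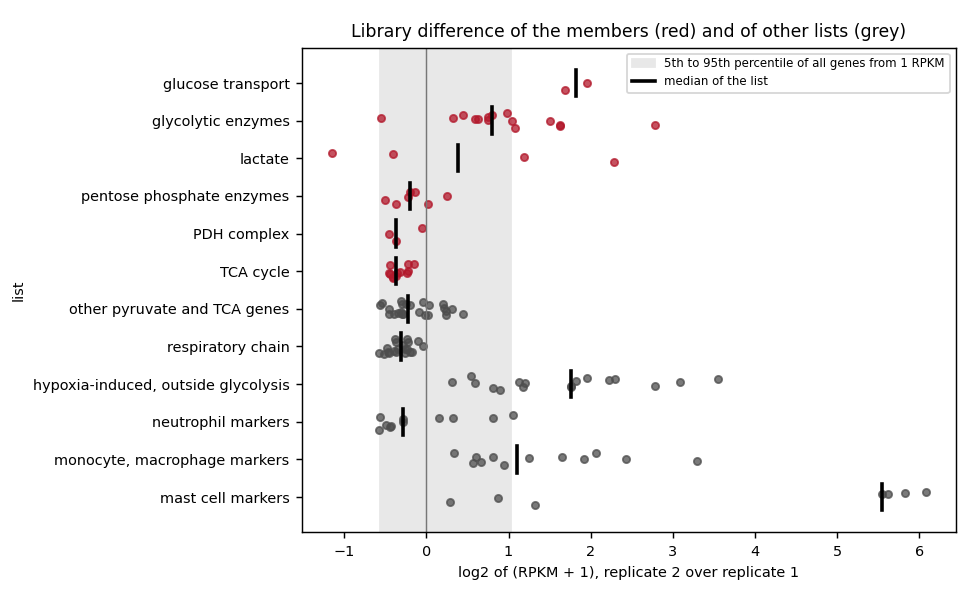
Log2 ratio of RPKM + 1, replicate 2 over replicate 1, for each gene whose mean reached 1 RPKM (points) and the median of each list (black bars), members in red and other lists in grey, with a grey band from the 5th to the 95th percentile of all genes. Glucose transport, glycolytic enzymes, hypoxia-induced genes and monocyte, macrophage and mast cell markers have medians above 0, while pentose phosphate, TCA cycle and respiratory chain genes have medians below 0.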

How the data were processed

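RNA-seq was done on 2 libraries of 1 group, mouse myeloid progenitors in culture. Per the labels' protocols, RNeasy kits with an on-column DNase step gave the total RNA and TruSeq RNA kits the libraries. The authors deposited 1 table of RPKM values with a column per library. Per the submitters' processing notes, Trimmomatic 0.32, TopHat2, HTSeq and edgeR were used with build mm9. The sources used here give neither their settings nor the annotation, gene lengths and strand setting, so overlapping genes on opposite strands may share reads. RPKM of all genes in a library falls when a few genes take up many reads.

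The 24015 rows included 27 with names in the form of dates, which were left out. Members were matched by symbol. They and all lists were chosen with earlier results of these data known. Detected means 1 RPKM or more in both libraries. Level contrasts are differences of medians of log2(RPKM + 1), called when the sign was shared by both libraries and the mean exceeded 2 SD. That SD is over the 2 libraries and leaves out the spread among genes. Log2 ratios used a pseudocount of 1, which understates differences of low genes. Every member could be named. Of other lists, the 4 highest genes, the 3 with the largest ratios and genes behind counts of 5 or fewer could be. Kit, from the mast cell list, and Eno1b, Hif1a, Epas1 and Arnt, from outside the lists, were named after their values were seen. Depth was read from steps between values (tolerance 1e-05), with the scale from 37 of 736 genes with 1 transcript in GENCODE vM21 that gave the same value. Read numbers are the smallest that fit. Intervals are exact binomial ones at 95% and cover counting error only. RefSeq promoters (GRCm38.p6) were matched by symbol for 47 members. Alternatives varied the pseudocount, minimum, average, scaling and libraries. Calculations used Python 3.11.15 and were tested on simulated data.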

Additional observations from a re-analysis of the deposited data

How the results depend on the processing

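No paired analysis was possible because the labels give 1 group. Glycolytic minus TCA cycle levels kept their direction but not their call with means (1.03) or members from 5 RPKM (2.03). The gap in replicate ratio between glycolytic and pentose phosphate enzymes, 1.001, was 0.98 with no minimum, just under 2-fold. Leaving out 1 library in turn gave 47 to 48 detected members, and level contrasts of 1.09 to 2.07 for glycolytic minus TCA cycle, 1.61 to 1.80 for pentose phosphate minus TCA cycle and -0.52 to 0.27 for glycolytic minus pentose phosphate genes. The last contrast, not called, was 0.32 with members from 5 RPKM. The median log2 ratio of all members, -0.06, was 0.02 with no minimum and 0.34 as a mean, so it has no settled direction. The count of members called higher, 11, was 12 with libraries centred on the median ratio, when Aldoa reached 1.04, and 10 with libraries rescaled without the 10 highest genes, when Pfkp stood at 0.99. The last scaling put the median of all genes at -0.10. Under every scaling, pseudocount and minimum tried, all 12 TCA cycle genes were lower and 14 glycolytic enzyme genes higher in replicate 2, or 15 with no minimum, when Eno2 enters. Eno2 and Pdk2, the 2 members under the minimum, had as few as 11 and 12 reads in replicate 1. Depth limits the ratio of Eno2, whose counting interval ran from 0.609 to 3.41. That of Pdk2, from 3.41 to 12.8, lay above 2-fold. Pdk2 was left out by the minimum, and the pseudocount of 1 put its log2 ratio at 0.88.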

Other observations

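The genes of the oxygen-sensing factors themselves were also read. Hif1a had 44.0 RPKM in replicate 2 and 32.8 in replicate 1, a log2 ratio of 0.41, and its partner gene Arnt had 30.1 RPKM in replicate 2 and 29.0 in replicate 1. Epas1, which encodes HIF-2 alpha, was low with 1.41 RPKM in replicate 2 and 0.487 in replicate 1, a 2.89-fold difference. HIF proteins are controlled mainly by their stability, so these RNA levels do not report their activity.

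The enolase copy Eno1b showed a 38.5-fold difference between libraries, with 22.3 RPKM in replicate 2 and 0.578 in replicate 1, while Eno1 differed by 1.75-fold. The 2 genes are near-identical in sequence, and how reads that match both were counted is not given in the sources used here.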
